A study of Mus musculus with 17 samples.

Results

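The tricarboxylic acid (TCA) cycle transcripts described here are *Cs*, *Idh3a*, *Idh3b*, *Idh2*, *Ogdh*, *Sucla2*, *Suclg1*, *Fh1* and *Mdh2*, 9 of the 56748 genes in a table of read counts from mouse hearts. They were taken from the table by gene symbol, from a list made with earlier results of these data known, and all 9 had enough reads to be tested. RNA was sequenced from 17 hearts of mice aged 12 to 16 months, with 1 library per heart. Of these hearts, 8 came from control mice (Ctrl) and 9 from *Polg*hMut mice (hMut), which carry *Polg*iMut/iMut together with 1 copy of a Ckmm-cre transgene. The iMut allele makes wild-type mitochondrial DNA polymerase until Cre removes a floxed cassette, after which a proofreading-deficient polymerase is made. Cre was driven by the muscle creatine kinase promoter, so the switch takes place in heart and striated muscle cells, while fibroblasts, vessels and immune cells of the same heart are not targeted. The labels give the other group only as control, without its alleles, and do not give the sex of the mice.

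In the TCA cycle, acetyl groups from fatty acids, pyruvate and other fuels are joined to oxaloacetate and oxidised to carbon dioxide, and the electrons are passed to NAD+ and FAD for the respiratory chain. Its enzymes are encoded in the nucleus and imported into the mitochondrial matrix, unlike the respiratory chain, some of whose subunits are encoded by mtDNA. Heart muscle makes most of its ATP by this route and is rich in these enzymes. The cycle cannot turn unless the respiratory chain takes the electrons back from NADH, so the comparison of hMut with Ctrl hearts asks whether transcripts of the cycle differ in hearts that accumulate mtDNA mutations.

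Total counts lay between 32915159 and 46486964 per library, and each member had at least 8591 counts in every library, so that counting error was at most 1.08% of a value. *Polg*, the targeted gene, was at 34.7 ± 7.31 CPM (counts scaled by the TMM method to a common library size; SD, n = 8) in Ctrl and at 57.9 ± 6.08 CPM (SD, n = 9) in hMut hearts, and its log2 fold change of 0.74 (SE, the standard error, 0.10) passed the quasi-likelihood test of edgeR at a Benjamini-Hochberg adjusted p of 0.000448. Genes of the mtDNA took 23.5% to 30.9% of the counts in Ctrl and 15.9% to 23.0% in hMut libraries. Of the 16195 genes tested, 749 passed an adjusted p of 0.05, with 564 higher and 185 lower in hMut. Heart muscle genes such as *Myh6* were abundant in every library, whereas the atrial markers *Myl7* and *Sln* had at most 19 counts in any library and the skeletal muscle myosins *Myh1*, *Myh2* and *Myh4* at most 12. Replicates 6 and 9 of the hMut group stood apart from the other hMut hearts in many genes, including those described here, so results are given with and without these 2 libraries.

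None of the 9 members passed the threshold between the groups (0 of 9, where 4.62% of all tested genes passed in either direction and 1.14% were lower). All 9 nevertheless had a log2 fold change below 0, as did 49.5% of all tested genes, and the fold changes lay between -0.28 for *Idh2* and -0.11 for *Idh3a*. Their median was -0.18, compared with 0.0023 over all genes tested. At an unadjusted p of 0.05, *Ogdh*, *Idh2*, *Cs* and *Sucla2* were lower in hMut (4 of 9), where 11.3% of all tested genes were lower and 25.8% differed in either direction at that p. On a linear scale the hMut mean differed from the Ctrl mean by -7.61% for *Idh3a* and by -17.7% for *Idh2*. In heart tissue of mixed cells, fewer cells of a type and less RNA per cell cannot be told apart.

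The 5′ flanks of some members are shown because these transcripts varied together from heart to heart, and factors such as the ERR nuclear receptors and NRF1 are known to act at genes of oxidative metabolism. RefSeq promoter windows, from 250 bases before to 50 bases after each annotated start, were matched by symbol for 8 of the 9 members, in 13 windows, of which 6 belong to *Ogdh*. *Idh3a* was not matched. The sequences below are given on the strand of the gene in the GRCm38.p6 assembly, from 250 bases before the start to 10 bases into the transcript, for *Ogdh* (chr11:6291920-6292179, plus strand), *Sucla2* (chr14:73552536-73552795, plus strand) and *Idh2* (chr7:80115341-80115600, minus strand). Capitals mark a match to a searched motif, read here from its reverse strand.
Ogdh: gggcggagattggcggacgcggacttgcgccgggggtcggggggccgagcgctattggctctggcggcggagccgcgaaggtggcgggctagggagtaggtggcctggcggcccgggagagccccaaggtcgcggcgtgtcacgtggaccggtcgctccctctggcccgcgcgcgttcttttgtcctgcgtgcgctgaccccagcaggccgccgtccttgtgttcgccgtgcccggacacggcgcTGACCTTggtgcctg
Sucla2: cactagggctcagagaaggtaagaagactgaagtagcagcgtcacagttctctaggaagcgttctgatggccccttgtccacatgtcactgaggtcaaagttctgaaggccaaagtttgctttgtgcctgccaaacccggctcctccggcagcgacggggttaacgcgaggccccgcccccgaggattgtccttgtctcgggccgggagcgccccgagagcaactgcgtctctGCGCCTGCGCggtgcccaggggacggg
Idh2: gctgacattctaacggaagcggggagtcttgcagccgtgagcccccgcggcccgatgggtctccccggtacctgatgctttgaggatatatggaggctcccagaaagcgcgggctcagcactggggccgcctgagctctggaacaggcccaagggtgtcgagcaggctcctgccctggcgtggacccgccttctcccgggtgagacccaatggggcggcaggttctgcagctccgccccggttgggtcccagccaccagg

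The letters AAGGTCA, the core to which ERR receptors bind, were found on either strand in 1 member window, the *Ogdh* window printed above. The match there runs from -5 to 1, with positions given as offsets from the first base of the transcript. They were present in 4.72% of the 32851 promoter windows in the table. The NRF1 motif, written as GCGC, an A, any base and GCGC again, was present in 4.60% of all windows and, among the members, in that of *Sucla2*, from -17 to -8. The ETS core CCGGAAG was found in *Idh3b* and in 8.86% of all windows. The ATF4 core TGATGNAA was in 3.97% of all windows and in none of the 13. *Idh2*, with the largest fold change of the members, held none of these 4 strings in its window. The motifs do not overlap in these windows, and a match describes letters in the sequence, not a site in use.

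*Cs* encodes citrate synthase, which opens the cycle by joining acetyl-CoA to oxaloacetate and whose activity is widely used as a measure of mitochondrial content. Its gene lies on chromosome 10 of GRCm39, from 128173603 to 128198348. Values in Ctrl hearts were tightly grouped, from 1362 to 1449 CPM with a median of 1388. In hMut hearts they ran from 963 to 1402 CPM with a median of 1316, and 8 of the 9 lay below the whole Ctrl range. The same was found for at least 8 hMut hearts in 0.58% of all tested genes, and for all 9 in 0.0617%. The log2 fold change of -0.17 (SE 0.067) did not pass the test (adjusted p = 0.132, edgeR). Without hMut replicates 6 and 9 it was -0.09 (adjusted p = 0.200, edgeR), so for this enzyme most hMut hearts were below the Ctrl range by a small amount, and these 2 were far below it, at 963 and 1029 CPM.

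Isocitrate is oxidised by an NAD+-dependent enzyme, with a catalytic subunit encoded by *Idh3a* and a further subunit encoded by *Idh3b*, and by an NADP+-dependent enzyme encoded by *Idh2*, which also supplies NADPH for antioxidant defence. *Idh2* (chromosome 7, 79744594 to 79765140) was between 1751 and 2145 CPM in Ctrl hearts, with a median of 1936, and between 1099 and 2062 CPM in hMut hearts, with a median of 1722. Here 7 of the 9 hMut hearts lay below the whole Ctrl range, as was the case for at least 7 hearts in 2.35% of all tested genes. It had the largest fold change of the members (log2 fold change -0.28, SE 0.10, 95% interval from -0.50 to -0.06, adjusted p = 0.110, edgeR), and without replicates 6 and 9 this was -0.16 (adjusted p = 0.143, edgeR).

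*Idh3b* (chromosome 2, 130121229 to 130126467) was between 573 and 697 CPM in Ctrl hearts (median 652) and between 379 and 683 CPM in hMut hearts (median 587). The groups overlapped except for hMut replicates 6 and 9, which were at 379 and 404 CPM. Its log2 fold change was -0.20 (SE 0.097, adjusted p = 0.196, edgeR) and became -0.08 without this pair of hearts. *Idh3b* overlaps *Nop56* on the opposite strand, which held 931 counts per library on average, and since the strand setting of the counting is not given in the sources used here, its value is uncertain to that extent. For *Idh3a* (chromosome 9, 54493618 to 54511945) the range was 633 to 734 CPM in Ctrl (median 663) and 445 to 763 CPM in hMut hearts (median 643). It had the smallest difference of the members, with a log2 fold change of -0.11 (SE 0.082, 95% interval from -0.29 to 0.06, adjusted p = 0.376, edgeR), and of -0.02 without replicates 6 and 9. Its highest value of all 17 hearts was in an hMut heart, replicate 2.

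*Ogdh* encodes the E1 subunit of the 2-oxoglutarate dehydrogenase complex, which makes succinyl-CoA and is a point of control of the cycle. It lies on chromosome 11, from 6241633 to 6306642. Ctrl hearts were between 2049 and 2777 CPM with a median of 2472, and hMut hearts between 1687 and 2488 CPM with a median of 2145. Only hMut replicates 6 and 9 were below every Ctrl heart, at 1689 and 1687 CPM, because Ctrl replicate 3 was itself low, but 8 of the 9 hMut hearts were below the Ctrl median. At least 2 hMut hearts were below every Ctrl heart in 36.9% of all tested genes. *Ogdh* had the smallest p of the members (log2 fold change -0.23, SE 0.080, unadjusted p = 0.00990, adjusted p = 0.0943, edgeR). It passed the threshold with DESeq2 (-0.23, adjusted p = 0.0496), where 3.12% of genes were lower, and *Ogdh* and *Idh2* both did with limma-voom and sample quality weights (-0.19, adjusted p = 0.0264, and -0.22, adjusted p = 0.0298), where 5.59% of genes were. Leaving out hMut replicate 2, the hMut heart with the highest levels, also took both past the threshold in edgeR, to -0.26 for *Ogdh* (adjusted p = 0.0395) and -0.33 for *Idh2* (adjusted p = 0.0374). In that fit 1792 of 16136 tested genes passed, 664 of them lower, where 749 of 16195 passed with all hearts, 185 of them lower.

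Succinyl-CoA ligase, the step of the cycle that forms a nucleotide triphosphate directly, is built from a shared alpha subunit, *Suclg1*, and either of a pair of beta subunits, *Sucla2* for the ATP-forming and *Suclg2* for the GTP-forming enzyme. *Sucla2* (chromosome 14, 73762759 to 73833582) was between 617 and 741 CPM in Ctrl hearts (median 676) and between 380 and 716 CPM in hMut hearts (median 596). In this case 5 of the 9 hMut hearts lay below the whole Ctrl range, and at least 5 were in 9.35% of all tested genes. The log2 fold change was -0.22 (SE 0.095, adjusted p = 0.153, edgeR), or -0.11 without replicates 6 and 9. *Suclg1* (chromosome 6, 73225365 to 73253894) was between 309 and 346 CPM in Ctrl (median 317) and between 204 and 353 CPM in hMut hearts (median 310), with a log2 fold change of -0.12 (SE 0.086, adjusted p = 0.387, edgeR). Without replicates 6 and 9 the *Suclg1* fold change was -0.0096 on the log2 scale, with a 95% interval from -0.09 to 0.07.

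*Fh1* encodes fumarase, which hydrates fumarate to malate, and *Mdh2* the mitochondrial malate dehydrogenase, which closes the cycle and also serves the malate-aspartate shuttle. *Fh1* (chromosome 1, 175427940 to 175453201) was between 338 and 429 CPM in Ctrl hearts (median 392) and between 229 and 429 CPM in hMut hearts (median 356). Its log2 fold change was -0.18 (SE 0.098, adjusted p = 0.243, edgeR), and -0.07 without replicates 6 and 9. *Mdh2* (chromosome 5, 135807334 to 135819252) was between 939 and 1053 CPM in Ctrl (median 1018) and between 711 and 1084 CPM in hMut hearts (median 982). This gave a log2 fold change of -0.12 (SE 0.074, adjusted p = 0.291, edgeR), and of -0.03 without that pair. For both genes the remaining 7 hMut hearts largely shared the range of the Ctrl hearts. *Cs*, *Idh2* and *Fh1* overlap genes that held at most 51.2 counts per library on average, far fewer than the members did.

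**Figure D1:**
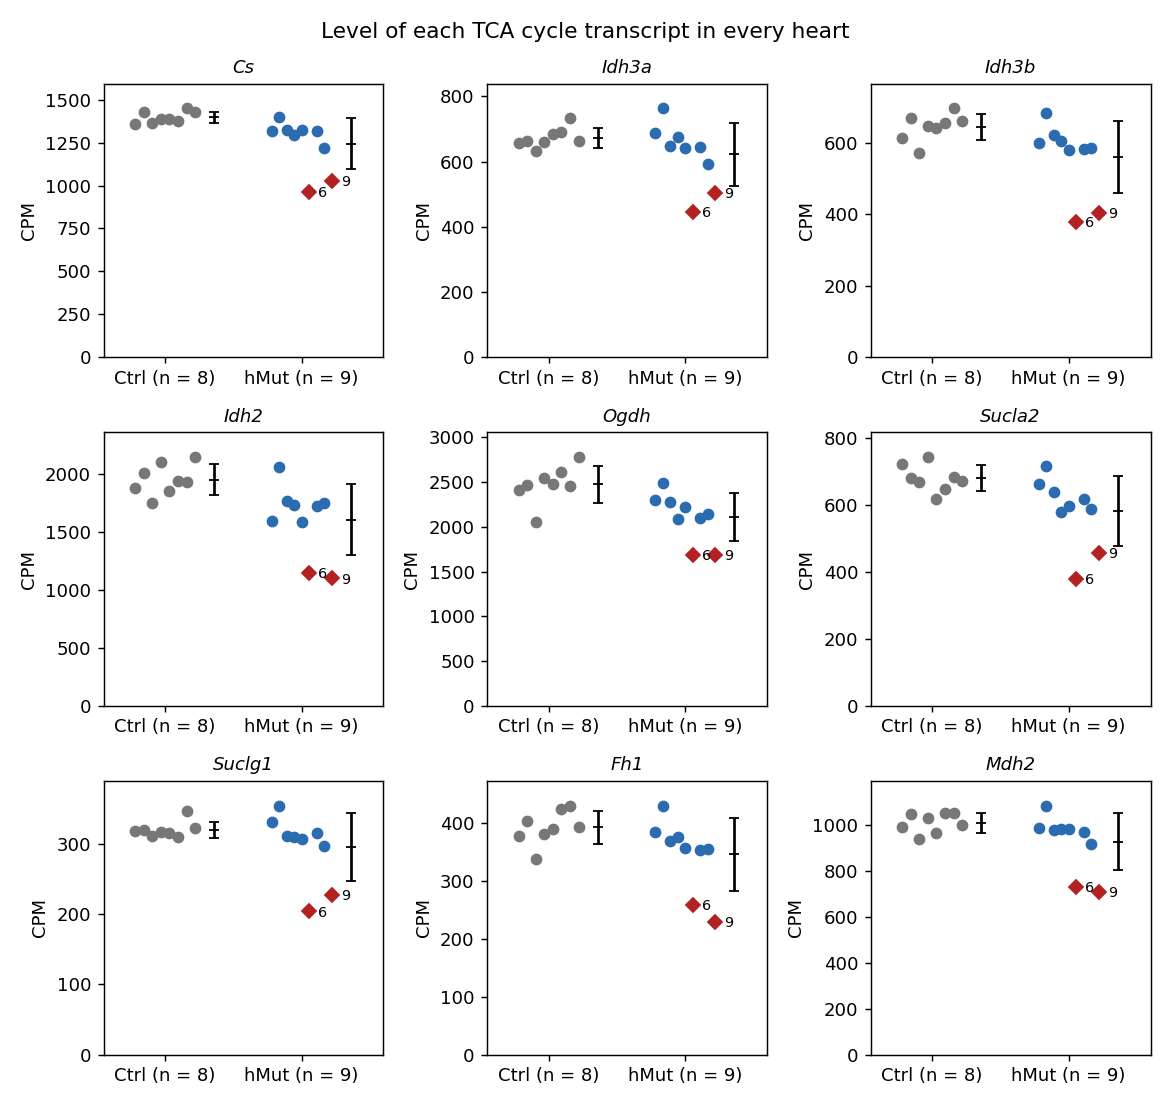
Level of each of the 9 transcripts in CPM (vertical axes from 0) in the 8 Ctrl and 9 hMut hearts, 1 point per heart, with a bar at the mean and a line for 1 SD. Diamonds mark hMut replicates 6 and 9, which are the lowest hMut hearts in every panel, while the other hMut hearts lie close to or within the Ctrl range.

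Without replicates 6 and 9, *Ogdh*, *Idh2*, *Cs* and *Sucla2* were again the members with an unadjusted p under 0.05, where 8.76% of all tested genes were lower at that p. The median over the 9 members was then -0.08, and all 9 fold changes were still below 0, as were those of 8384 of 16159 tested genes. With these 2 libraries left out, 0 members passed the adjusted threshold, which 2.67% of all tested genes did.

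**Figure D2:**
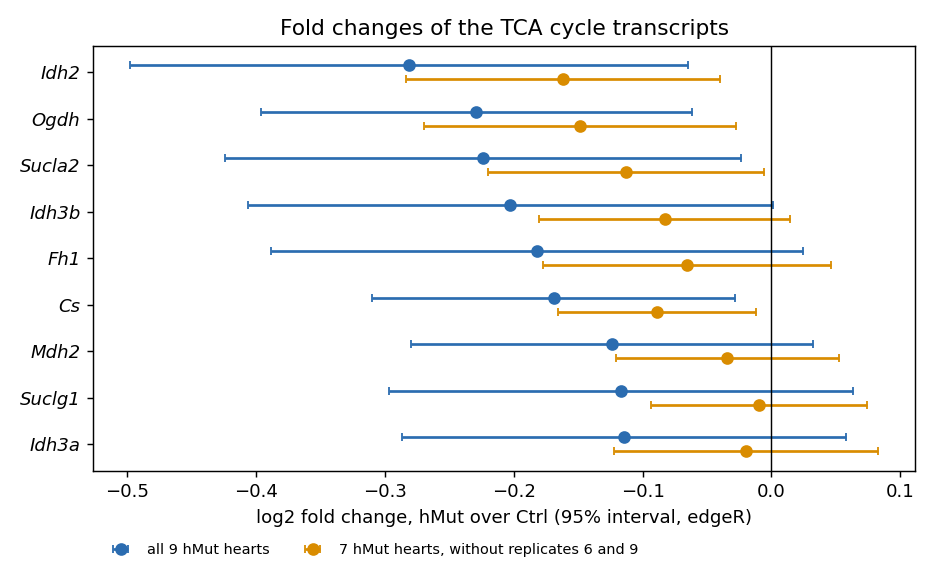
Log2 fold change of each transcript, hMut over Ctrl, with its 95% interval from edgeR (horizontal axis, 0 means no difference), with all 17 hearts and without hMut replicates 6 and 9. All 9 estimates are below 0 in both fits, from -0.28 to -0.11 with all hearts, and move towards 0 without these 2 hearts.

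Levels of the members could be compared with each other after division by gene length (RPKM, which is CPM per kilobase). In Ctrl hearts *Idh2* was highest at 754 ± 50.4 RPKM (SD, n = 8), followed by *Ogdh* at 453 and *Mdh2* at 284, and *Suclg1* was lowest at 69.2 ± 2.47 (SD, n = 8). In between were *Cs* at 242, *Idh3b* at 189, *Sucla2* at 170, *Idh3a* at 133 and *Fh1* at 116 RPKM. The ranges of neighbours in this order overlapped in Ctrl hearts only for *Idh3b* with *Sucla2* and for *Idh3a* with *Fh1*. The order of the means was the same in hMut hearts, from *Idh2* at 621 ± 118 to *Suclg1* at 63.9 ± 10.4 RPKM (SD, n = 9). *Csl*, a citrate synthase-like gene, had at most 3 counts in any library, whereas *Ogdhl*, a relative of *Ogdh*, reached 8302 counts and had a log2 fold change of -0.22 (adjusted p = 0.379, edgeR).

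Each member had a larger coefficient of variation among hMut than among Ctrl hearts, a difference in spread that was not tested. The coefficient of variation was between 2.33% (*Cs*) and 8.37% (*Ogdh*) among Ctrl hearts and between 12.0% (*Cs*) and 19.1% (*Idh2*) among hMut hearts. In all 9 members the lowest 2 hMut hearts were replicates 6 and 9. Averaged over the members, the log2 level relative to the Ctrl mean was -0.64 in replicate 6 and -0.58 in replicate 9, compared with -0.16 to 0.09 in the other 7 hMut hearts and -0.12 to 0.07 in Ctrl hearts. The individual members ranged from -0.84 to -0.47 in replicate 6 and from -0.83 to -0.41 in replicate 9. In each of these hearts all 9 members were below every Ctrl heart, as were 28.8% of all tested genes in replicate 6 and 26.6% in replicate 9. Among the other hMut hearts, replicate 8 had 6 members below every Ctrl heart (14.4% of all tested genes) and replicate 2 had 0 (10.4%).

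Markers of some other cell types set the same pair of hearts apart from the other hMut hearts in 1 direction, and those of others did not. The mean of 18 cardiomyocyte genes, relative to the Ctrl mean, was -0.41 in replicate 6 and -0.42 in replicate 9 on the log2 scale, against -0.15 to 0.04 in the other hMut hearts and -0.12 to 0.09 in Ctrl hearts. Between the groups 0 of the 18 passed the threshold, with a median log2 fold change of -0.16 and 11 of them lower at an unadjusted p of 0.05 (over all tested genes, 1.14% and 11.3% were lower at these thresholds). The 8 macrophage markers averaged 1.95 in replicate 6 and 1.07 in replicate 9, against -0.14 to 0.27 in the other hMut hearts, and their summed level was 247 to 363 CPM in Ctrl and 308 to 1254 CPM in hMut hearts. None of them was at 0 and none passed the test between the groups, but 6 of the 8 were higher at an unadjusted p of 0.05, where 14.5% of all tested genes were (median log2 fold change 0.67). For 7 fibroblast markers, summed at 895 to 1058 CPM in Ctrl and 887 to 2054 CPM in hMut hearts, the averages were 1.19 and 0.83 in these hearts and -0.20 to 0.36 in the other hMut hearts, and 0 passed while 6 were higher at an unadjusted p of 0.05. The 5 endothelial markers, at -0.04 and 0.32 in replicates 6 and 9, were within the range of the other hMut hearts (-0.06 to 0.33). Ctrl hearts were between -0.12 and 0.14 in this list, so replicate 9 was above all of them. The 5 smooth muscle and pericyte markers were at 0.05 in replicate 6 and 0.66 in replicate 9, respectively below and above the other hMut hearts (0.19 to 0.45). Here Ctrl hearts ranged from -0.52 to 0.20, and replicate 9 was again above all of them. In each of these 2 lists 1 gene passed, *Kdr* and *Pdgfrb*, both higher in hMut (3.48% of all tested genes were). The 6 lymphocyte markers were at 2.24 in replicate 6 and 0.67 in replicate 9, where the Ctrl hearts ranged from -1.50 to 2.46. The part of these cell types in the TCA values was not tested.

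Relative to the cardiomyocyte genes of the same heart, the members were at -0.23 in replicate 6 and -0.16 in replicate 9 on the log2 scale, and from -0.02 to 0.06 in the remaining 7, where Ctrl hearts were between -0.06 and 0.09. In these 2 hearts, then, the mean of the members was lower than that of the cardiomyocyte genes, while in the others both were at a similar distance from Ctrl. Single cardiomyocyte genes differed widely in these 2 hearts. *Atp2a2* was at 7453 and 7928 CPM in replicates 6 and 9 (Ctrl median 15485), whereas *Des* was at 2162 and 1948 CPM (Ctrl maximum 1691). The difference between the means therefore depends on which marker genes are averaged. With all libraries scaled on the cardiomyocyte genes, which raised the median over all genes by 0.18, the members' median was -0.02 and none passed, where 29.1% of all tested genes were higher and 0.741% lower. Under it, *Cs*, *Idh3a*, *Suclg1* and *Mdh2* had fold changes above 0 of at most 0.05, while *Idh2* was at -0.12, *Ogdh* and *Sucla2* at -0.06, *Idh3b* at -0.04 and *Fh1* at -0.02.

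**Figure D3:**
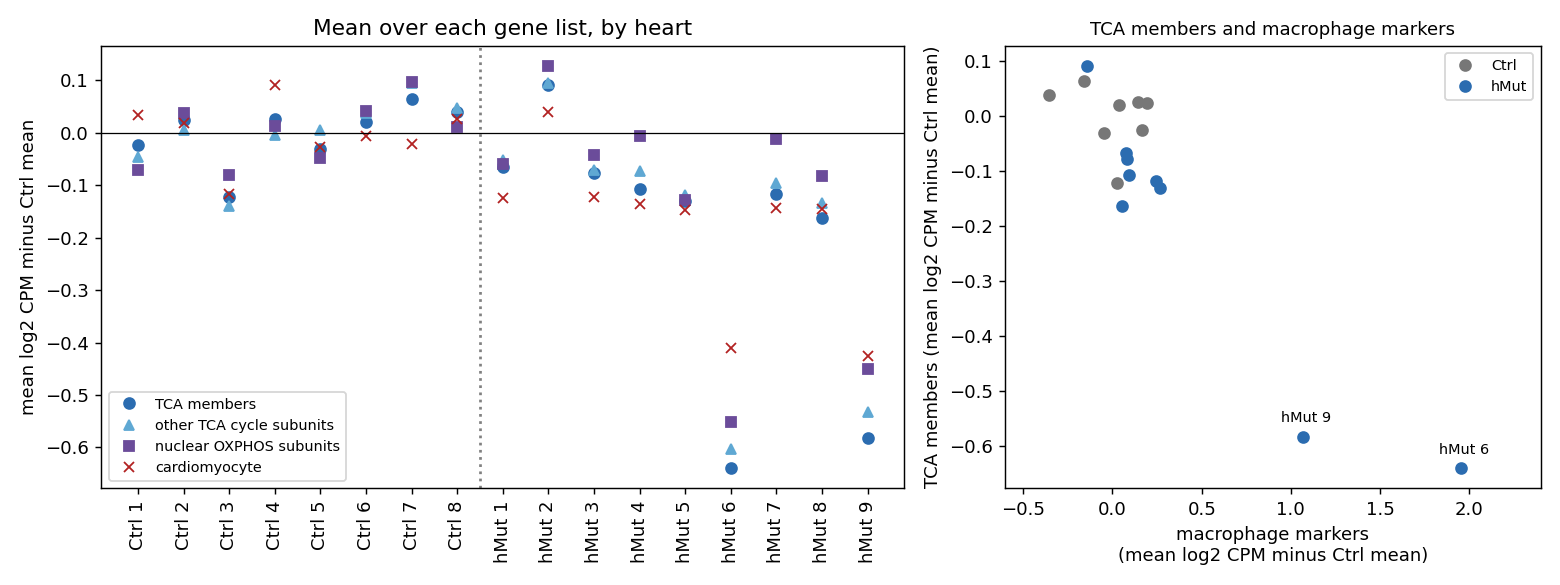
Left, mean log2 CPM relative to the Ctrl mean (vertical axis) of the TCA members, the other TCA cycle subunits, the nuclear OXPHOS subunits and the cardiomyocyte genes in each of the 17 hearts (horizontal axis), where hMut 6 and hMut 9 are lowest for all 4 lists. Right, the mean of the TCA members (vertical axis) against that of the 8 macrophage markers (horizontal axis), both as log2 CPM relative to the Ctrl mean, with 1 point per heart, where hMut 6 (1.95, -0.64) and hMut 9 (1.07, -0.58) lie apart from the other 15 hearts.

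Ratios between members of a pair do not depend on the scaling of the libraries, and 3 were tested with two-sided exact permutation tests over all 24310 ways to divide the hearts into groups of these sizes, adjusted over the 3. The ratio of *Idh3a* to *Idh2* was higher in hMut hearts, at -1.36 ± 0.13 (log2, SD, n = 9) against -1.53 ± 0.11 in Ctrl (SD, n = 8). The difference was 0.17, with a 95% interval from 0.05 to 0.30 (exact permutation p = 0.00967, adjusted p = 0.0290). These 2 genes had the smallest and the largest fold change of the 9 members (-0.11 and -0.28). The adjustment over the 3 ratios does not cover other pairs that could have been formed. For this ratio 5 hMut hearts exceeded the highest Ctrl value and 8 of 9 exceeded the Ctrl median. Within the NAD+-dependent enzyme, *Idh3a* to *Idh3b* was 0.16 ± 0.09 in hMut and 0.06 ± 0.05 in Ctrl hearts, a difference of 0.09 (95% interval 0.02 to 0.17, exact permutation p = 0.0202, adjusted p = 0.0302), and 7 of the 9 hMut hearts were above the Ctrl median.

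These differences depended on single hearts. In exact permutation tests, both adjusted p-values were above 0.05 without hMut replicates 6 and 9 together (0.14 with adjusted p = 0.0881 for *Idh3a* to *Idh2*, and 0.06 with adjusted p = 0.107 for *Idh3a* to *Idh3b*). The same was so on leaving out Ctrl replicate 2 (adjusted p = 0.0593 and 0.0639, permutation), Ctrl replicate 4 (0.0573 for both), Ctrl replicate 8 (0.0605 for both), hMut replicate 1 (0.0506 for both) or hMut replicate 9 (0.0531 and 0.0548). Without hMut replicate 6, only the ratio of *Idh3a* to *Idh3b* was no longer past the threshold (adjusted p = 0.0536, permutation). Both differences stayed above 0 in each of these tests.

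The ratio of *Sucla2* to *Suclg2* was 1.51 ± 0.05 in hMut (log2, SD, n = 9) and 1.58 ± 0.11 in Ctrl hearts (SD, n = 8). *Sucla2* thus had the higher CPM in both groups, without division by gene length. The difference of -0.07 did not pass the test (95% interval from -0.15 to 0.02, exact permutation p = 0.118, adjusted p = 0.118), except without Ctrl replicate 5 (-0.08, adjusted p = 0.0462, permutation). hMut replicates 6 and 9 were within the range of the other hMut hearts in this ratio, at 1.52 and 1.48. Both beta subunits were lower in these hearts by a similar factor. *Suclg2* alone had a log2 fold change of -0.16 (adjusted p = 0.251, edgeR).

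**Figure D4:**
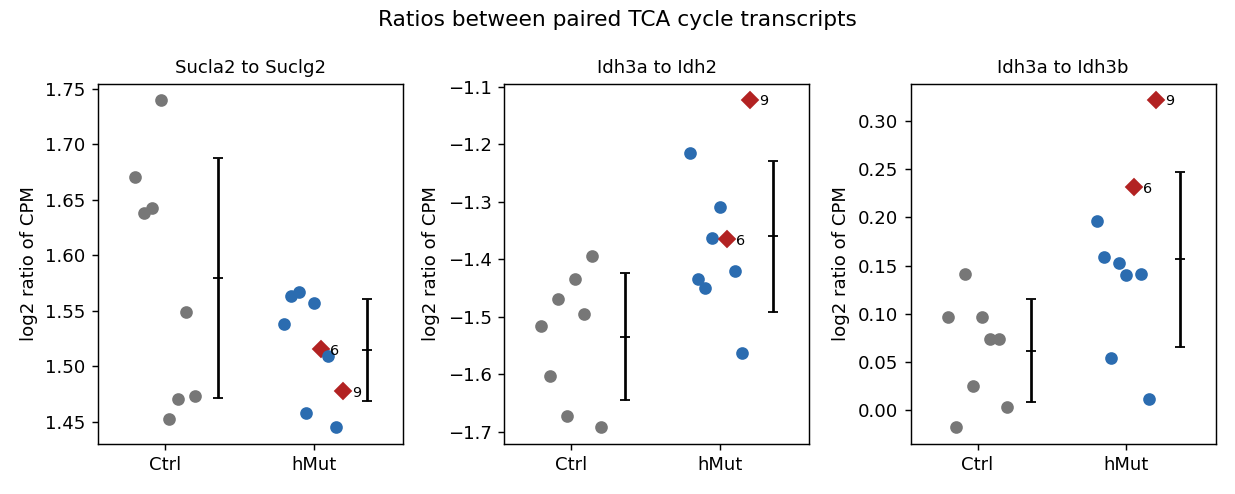
Log2 ratio of CPM (vertical axes) for *Sucla2* to *Suclg2*, *Idh3a* to *Idh2* and *Idh3a* to *Idh3b* in Ctrl and hMut hearts, 1 point per heart with mean and SD, and diamonds for hMut replicates 6 and 9. The hMut mean is higher by 0.17 for *Idh3a* to *Idh2* and by 0.09 for *Idh3a* to *Idh3b*, and the difference for *Sucla2* to *Suclg2* is -0.07.

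The remaining subunits of the cycle gave values like those of the members. Of 9 tested, 0 passed in either direction, all 9 had fold changes below 0 and their median was -0.16. Over all tested genes, 4.62% passed in either direction and 49.5% had fold changes below 0. Of the other 2-oxoglutarate dehydrogenase subunits, *Dlst* (E2) had a log2 fold change of -0.17 and *Dld* (E3, shared with the pyruvate complex) of -0.20 (adjusted p = 0.196 and 0.125, edgeR). Succinate dehydrogenase, which is also complex II of the respiratory chain and has no mtDNA-encoded subunit, had log2 fold changes of -0.23 for *Sdha*, -0.14 for *Sdhb*, -0.18 for *Sdhc* and -0.15 for *Sdhd*. *Idh3g*, the gamma subunit of the NAD+-dependent isocitrate dehydrogenase, was at -0.12 (adjusted p = 0.400, edgeR). The list averaged -0.60 in hMut replicate 6 and -0.53 in replicate 9 on the log2 scale. For lipoylation and succinate dehydrogenase assembly, which equip these complexes with cofactors, 0 of 10 genes passed and the median was -0.07.

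Of 13 genes for the entry of pyruvate, which is imported by the mitochondrial pyruvate carrier and turned into acetyl-CoA by pyruvate dehydrogenase, 0 passed and the median log2 fold change was -0.15. Among the kinases that switch pyruvate dehydrogenase off, *Pdk1* was at -0.02 and *Pdk2* at -0.23, while *Pdk3*, at 1.57 to 2.15 CPM the scarcest of them in Ctrl hearts, was at 0.50 (adjusted p = 0.0681, edgeR) and *Pdk4* at 0.33 (adjusted p = 0.526, edgeR). *Pdk4* ranged from 106 to 983 CPM within the Ctrl group. The phosphatase subunits *Pdp1* and *Pdp2*, which switch the enzyme on, were at -0.21 and -0.55 (adjusted p = 0.157 and 0.105, edgeR). None of these values passed the threshold, which 4.62% of all tested genes did in either direction.

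Among 22 genes that refill the cycle or exchange its intermediates, *Pck2* was higher in hMut and 0 were lower, with a median of -0.15. *Pck2* encodes the mitochondrial phosphoenolpyruvate carboxykinase, which draws oxaloacetate from the cycle and is a known target of the stress factor ATF4. It was between 10.2 and 12.6 CPM in Ctrl hearts (median 11.3) and between 11.3 and 28.0 CPM in hMut hearts (median 21.1), and 8 of the 9 hMut hearts lay above the whole Ctrl range, which at least 8 did in 1.70% of all tested genes. Its log2 fold change was 0.82 (SE 0.13, adjusted p = 0.00165, edgeR), where 3.48% of all tested genes were higher. Without replicates 6 and 9 it was 0.69 (adjusted p = 0.00304, edgeR). The higher level of *Pck2* was thus not limited to the pair of hearts with the lowest TCA transcripts.

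In the list of PGC-1 and ERR regulators, which control genes of mitochondrial biogenesis, 1 of 9 genes was lower and 0 were higher, with a median of -0.12 (1.14% of all tested genes were lower). The gene was *Ppargc1a*, which encodes the coactivator PGC-1alpha. Ctrl hearts were between 90.1 and 109 CPM (median 94.6) and hMut hearts between 69.9 and 95.2 CPM (median 76.2), with 8 of 9 below every Ctrl heart, which at least 8 were in 0.58% of all tested genes. Its log2 fold change of -0.29 (SE 0.058) passed the test (adjusted p = 0.00812, edgeR), also without replicates 6 and 9 (-0.25, adjusted p = 0.0209, edgeR), but not with the libraries scaled on cardiomyocyte genes (-0.11, adjusted p = 0.113, edgeR). *Esrra*, which encodes the receptor ERRalpha, was at -0.12 (adjusted p = 0.273, edgeR).

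Nuclear genes for subunits of oxidative phosphorylation (OXPHOS) were tested as neighbours of the cycle in the same organelle. Of 80 tested, 2 were higher and 0 lower, where 3.48% of all tested genes were higher and 1.14% lower, and the median log2 fold change was -0.15. The 2 genes were *Cox6a1* and *Cox8a*, which encode isoforms of cytochrome c oxidase subunits that are found in most tissues, with log2 fold changes of 0.33 (adjusted p = 0.0152, edgeR) and 0.31 (adjusted p = 0.00171, edgeR). In hMut replicates 6 and 9 the list averaged -0.55 and -0.45, and -0.13 to 0.13 in the other hMut hearts.

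The genes whose levels followed the members most closely from heart to heart were sought by Pearson's r between their log2 CPM and the mean of the members, after the group means were subtracted, over all 17 hearts. Among the first 8 were *Mipep* (r = 0.991), *Mccc2* (0.991), *Etfa* (0.989), *Echs1* (0.988), *Uqcrc1* (0.988), *Sdhb* (0.987) and *Dlst* (0.983). *Mipep* encodes a peptidase that trims imported proteins, *Mccc2* an enzyme of leucine breakdown, *Etfa* and *Echs1* proteins of fatty acid oxidation, and *Uqcrc1* a subunit of complex III. Without replicates 6 and 9, over 15 hearts, r of these genes lay between 0.899 for *Uqcrc1* and 0.951 for *Dlst*. These are descriptions over libraries that share their scaling and their mixture of cells, and the largest residuals are those of replicates 6 and 9. By list, the median r over 17 hearts was 0.954 for the other TCA cycle subunits, 0.937 for nuclear OXPHOS subunits and 0.768 for pyruvate entry, and over 15 hearts 0.810, 0.706 and 0.522.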

How the data were processed

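RNA was extracted from 17 mouse hearts and poly(A)-selected libraries were sequenced on a NovaSeq X Plus. Per the labels and the study's methods, fastp removed poor reads, HISAT2 2.2.1 placed the rest on GRCm39, and featureCounts 2.0.6 assigned them to genes. What the authors deposited are these counts, without normalisation. The annotation release and the strand setting are not given in the sources used here, so the values of overlapping genes are uncertain. Groups and replicate numbers came from the labels, and all 17 columns were used.

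Counts were tested in R 4.3.3 with the quasi-likelihood test of edgeR 4.0.16 after TMM scaling and filterByExpr, over all 16195 genes that passed, with Benjamini-Hochberg adjustment and a threshold of 0.05. Standard errors (SE) were derived from the fold change and its F statistic, as their ratio on the log2 scale after taking the root of F. Poly(A) selection and differences in the mixture of cells affect levels, and scaling to a common total makes them relative. CPM and RPKM used the TMM-scaled library sizes and the gene lengths in the file, and log2 CPM a prior count of 2. P-values set the difference between the groups against the spread between the sequenced hearts. Counting error is that of the reads alone. No 2 libraries held the same counts, and Spearman's correlation across genes was 0.950 to 0.995 in the 136 pairs.

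The 3 ratios were tested by exact permutation (Python 3.11.15, scipy 1.17.1), with intervals from inverting that test. The edgeR test and the exact permutation test between the groups were checked on simulated data. The members, the gene lists and the alternatives were chosen with earlier results of these data known. Named genes are the members, the genes of a pathway list past the threshold, *Suclg2*, *Polg*, and the 8 most like the members, and other subunits of the cycle, the kinases and phosphatases of pyruvate dehydrogenase, *Csl*, *Ogdhl*, *Esrra*, the marker genes and the cytosolic enzymes, malic enzymes and carriers named in addition were chosen after their values were seen. Some genes that the rule would name are not reported here. The nuclear OXPHOS list held 84 symbols, of which 80 were tested. Of the atrial, adipocyte and skeletal muscle lists, 1 of 3, 1 of 5 and 0 of 3 genes were tested, and of the lymphocyte list 6 of 6, with 0 past the threshold in any of them. Promoter sequences are RefSeq's for GRCm38.p6. Their coordinates are not those of the counts. Alternatives were DESeq2 1.42.0, limma-voom (limma 3.58.1), RLE and upper-quartile scaling, removal of mtDNA-encoded genes, scaling on cardiomyocyte genes, other low-count filters, sex read from *Xist* and Y-linked counts, the replicate number as a block, each library left out in turn, and replicates 6 and 9 of hMut left out together.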

Additional observations from a re-analysis of the deposited data

Results flagged for a closer look

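Of 24 groups of hearts (the 9 members and the 3 ratios, in both genotypes), 2 held a heart set apart by a gap that was a large part of the range of its group, which happens by chance in about 5% of groups. Ctrl replicate 3 was lowest in *Ogdh*, at 11.00 log2 CPM, and Ctrl replicate 7 was highest in *Suclg1*, at 8.43 log2 CPM. hMut replicates 6 and 9 were not picked out by this criterion in any member, since each is close to the other.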

How the results depend on the processing

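Among the 252 values that 28 alternative settings gave for the 9 members, 243 kept their direction and their side of the threshold, 5 passed the threshold in the same direction and 4 changed sign. Those 4 were under scaling on cardiomyocyte genes, with log2 fold changes of 0.00071 for *Cs*, 0.051 for *Idh3a*, 0.047 for *Suclg1* and 0.045 for *Mdh2*, and *Suclg2* was at 0.0040. This scaling moved the members' median to -0.020 and the count of genes called over the whole table from 749 to 4840 (4720 higher and 120 lower), since it raises all genes by a like amount. Without hMut replicates 6 and 9 the median was -0.083, and leaving out single hearts gave -0.23 to -0.14. The members called were 1 with DESeq2, 2 with limma-voom and 0 to 2 with a heart left out. Over all genes, 1517 were called with DESeq2, 2081 with limma-voom, 463 without a low-count filter, 431 without hMut replicates 6 and 9, and 395 (hMut replicate 5 left out) to 1792 (hMut replicate 2 left out) with single hearts left out. This count was also moved by over 1.5 times on leaving out Ctrl replicate 1 (486), 2 (486), 5 (443), 6 (432), 7 (437) or 8 (428), or hMut replicate 1 (1182), 6 (497), 7 (400) or 9 (415). In the 7 pathway lists 4 genes were called, and 10 with DESeq2, 18 with scaling on cardiomyocyte genes, 19 with limma-voom, and 4 to 18 with a heart left out (18 without hMut replicate 2 and 7 without hMut replicate 1). With single hearts left out, the ratio differences were 0.14 to 0.20 for *Idh3a* to *Idh2*, 0.074 to 0.11 for *Idh3a* to *Idh3b* and -0.083 to -0.042 for *Sucla2* to *Suclg2*. Without hMut replicates 6 and 9 they were 0.14 and 0.061 for the first 2, no longer past the threshold. The cause of these shifts was not tested.

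Little sign was seen that the replicate numbers pair the samples. Of 8 same-numbered pairs, 1 deviated together with a correlation over 0.1 (replicate 8, at 0.34), and 2 of 16 libraries were most like the one with their own number. Such correlations over all genes cannot exclude a pairing, and the labels state none. With the number as a block, 195 genes were called, 0 members passed and *Ppargc1a* was at -0.28 (adjusted p = 0.0535, edgeR). For the ratios, the signs of the differences within the 8 same-numbered pairs were flipped in all ways. The differences were 0.14 for *Idh3a* to *Idh2* (adjusted p = 0.0703, exact sign-flip test) and 0.074 for *Idh3a* to *Idh3b* (adjusted p = 0.0820, exact sign-flip test). hMut replicate 9, the highest heart in both ratios, has no partner and does not enter these differences. The effect of the block is therefore not separated from that of leaving out this heart. Depth does not limit the members, whose counting error was at most 1.08%.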

Other observations

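Cytosolic counterparts of the cycle's enzymes, chosen after their values were seen, did not pass the threshold in edgeR. *Idh1*, the cytosolic NADP+-dependent isocitrate dehydrogenase, had a log2 fold change of -0.26 (adjusted p = 0.114, edgeR), *Mdh1*, the cytosolic malate dehydrogenase, of -0.20 (adjusted p = 0.221, edgeR), and *Aco1*, the cytosolic aconitase, of -0.12 (adjusted p = 0.125, edgeR). The 3 malic enzymes were at 0.12 for *Me1*, 0.15 for *Me2* and -0.16 for *Me3*. The 5 mitochondrial carriers on the list of exchange genes were at 0.34 for *Slc25a1*, which carries citrate (adjusted p = 0.0535, edgeR), -0.10 for *Slc25a10*, -0.16 for *Slc25a11*, -0.23 for *Slc25a12* and -0.27 for *Slc25a13*. None of these passed, and 17 of the 22 genes on that list had a log2 fold change below 0, as did 49.5% of all tested genes.

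In the ratio of *Sucla2* to *Suclg2*, Ctrl replicates 1 to 4 were between 1.64 and 1.74 on the log2 scale and Ctrl replicates 5 to 8 between 1.45 and 1.55. All 9 hMut hearts were between 1.44 and 1.57. The labels give no batch.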
